A study of Mus musculus with 4 samples.

Results

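Genes that let cells sense stretch and pass the signal on were examined in mouse tendon: the ion channel genes Piezo1, Piezo2 and Trpv4, the Hippo pathway effectors Yap1, Wwtr1 and Tead1, the connexin 43 gene Gja1, and Ptk2. They were matched to probe sets by gene symbol in the platform annotation. The genes were chosen with earlier results of these data known. Of these 8 genes, 7 had a probe set assigned to that symbol alone, out of 22180 genes with such a probe set on the array. Ptk2, which encodes focal adhesion kinase, was not analysed here. Where a gene had several such probe sets, the one with the highest mean over all arrays was taken, which mattered only for Yap1.

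The study described gene expression in plantarflexor tendons of male and female mice. All mice were wild-type C57Bl/6, 4 months old and untreated, so sex is the only labelled difference between the groups, with 2 arrays from males and 2 from females. The Achilles and plantaris tendons of an animal were pooled for RNA, and the labels do not say that the samples of a sex came from separate animals. Any p-value here reflects variation among these 4 samples alone, part of which could be technical.

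Values are log2 expression values after RMA, a method that summarises the probes of a gene on an array. The labels name tenocytes as the cell type, whereas whole tendon was extracted, and a change in cell number cannot be told apart from a change in RNA per cell. All 11 markers of tendon cells examined had a mean above the highest array median, and their median was between 6.04 and 6.54 per array. All 14 skeletal muscle markers did so too, with medians between 9.56 and 10.33, so muscle RNA was present on every array. The array medians over all rows lay between 2.27 and 2.30. No detection call was used, so a value near these medians is not told from background. Percentiles place a gene among the 22180 genes of an array and describe its probe signal, which mixes RNA abundance with how well the probes bind.

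Piezo1 and Piezo2 are large cation channels that open when the membrane is stretched, and TRPV4 is a calcium-permeable channel that responds to osmotic and mechanical stimuli. In tendon cells, PIEZO1 is known to sense shear stress when collagen fibres slide. YAP (Yap1) and TAZ (Wwtr1) are paired transcriptional coactivators that enter the nucleus on stiff or stretched matrix and act through TEAD factors such as TEAD1. The Hippo kinases phosphorylate YAP and TAZ and hold them in the cytoplasm. Connexin 43 forms gap junctions through which tendon cells exchange ions and small molecules along and between cell rows.

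TEAD proteins bind the short element GGAATG, so the promoters of the YAP and TAZ genes are shown for whether they hold it. Each sequence runs from 250 bases before to 50 bases after the transcription start (RefSeq, GRCm38.p6), and capitals mark the element. The Yap1 window lies at chr9:8004547-8004846 and the Wwtr1 window at chr3:57575861-57576160, both on the minus strand. For Wwtr1 this is the first of 2 annotated starts.
Yap1: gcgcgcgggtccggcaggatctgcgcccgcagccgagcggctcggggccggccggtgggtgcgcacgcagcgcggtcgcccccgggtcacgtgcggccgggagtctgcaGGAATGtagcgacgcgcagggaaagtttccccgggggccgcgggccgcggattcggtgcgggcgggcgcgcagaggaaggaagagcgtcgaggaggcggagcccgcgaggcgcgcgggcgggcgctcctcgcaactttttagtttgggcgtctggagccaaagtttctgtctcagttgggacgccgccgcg
Wwtr1: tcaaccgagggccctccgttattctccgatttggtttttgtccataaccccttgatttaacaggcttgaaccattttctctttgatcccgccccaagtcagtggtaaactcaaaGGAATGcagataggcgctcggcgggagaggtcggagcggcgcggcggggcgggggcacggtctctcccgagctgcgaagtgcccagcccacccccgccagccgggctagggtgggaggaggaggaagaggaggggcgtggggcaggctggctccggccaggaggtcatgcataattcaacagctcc

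The element begins 141 bases before the start in the Yap1 window and 136 bases before it in the Wwtr1 window shown, in both on the strand of the gene. Counted from the other Wwtr1 start (window chr3:57575827-57576126), the element begins 170 bases before it. No match on either strand was found in the windows of Piezo1, Trpv4 and Gja1. Among all 27025 genes with a window, 16.6% held GGAATG or its complement CATTCC in at least 1 window. Of 14 measured YAP and TAZ target genes with a window, 7 held it, among them Ccn1, Ankrd1, Axl and Crim1. These letter matches are a description and show no binding.

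Among the channels, Piezo1 (probe set 17513713, chromosome 8) gave signal well above the array medians. It was at 4.10 and 4.42 in males 1 and 2, at 3.43 in female 1 and at 4.27 in female 2. Female 1 was the low array, and the other female lay between the males. The mean was 4.05 ± 0.44 (SD, n = 4), and the percentile ranged from 72.6 in female 1 to 84.6 in male 2. Its SD was above the median SD of 0.36 among the 500 genes nearest to it in mean level.

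Piezo2 (probe set 17354906, chromosome 18), best known from touch and position sense in sensory neurons, was at 2.23, 2.29, 2.23 and 2.41 in male 1, male 2, female 1 and female 2. All 4 values lay at the array medians, 2 of them above their own array's median, with a percentile of 43.4 for the mean. Signal was not told from background on any array, so no difference is read from this gene.

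Trpv4 (probe set 17451549, chromosome 5) was at 2.93 in male 1, 2.87 in male 2, 2.97 in female 1 and 4.05 in female 2. A single array was thus high, and the remaining 3 differed by no more than 0.10. The percentile was between 62.0 and 64.6 on those arrays and 80.5 in female 2. The SD of 0.56 over the 4 arrays was the widest of the members, against a median of 0.29 among the 500 genes of most similar level.

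**Figure D1:**
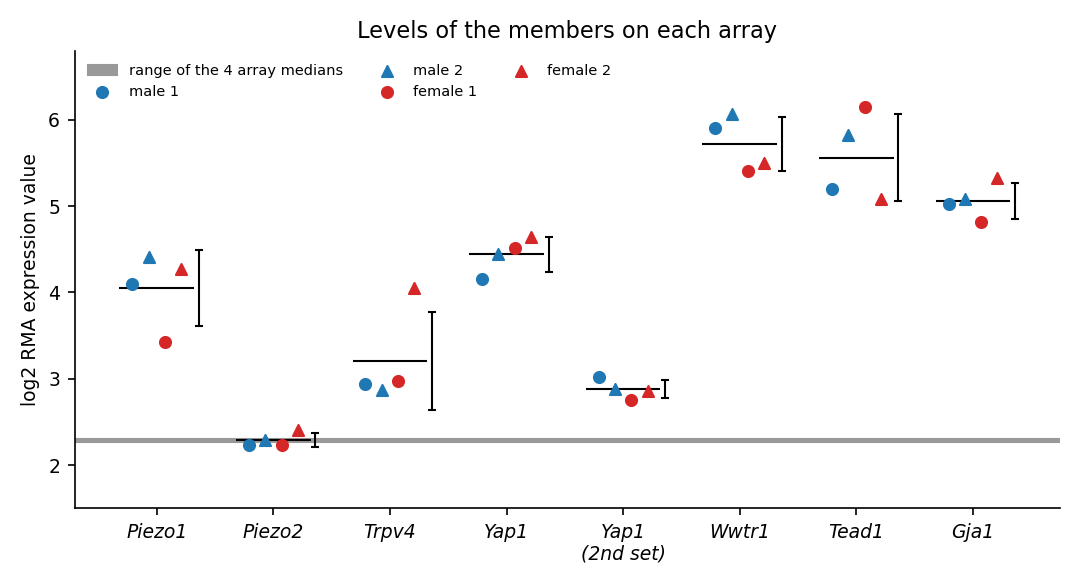
Log2 RMA values (vertical axis) of the 7 measured genes and of the second Yap1 probe set on each array. Blue marks males, red females, circles replicate 1 and triangles replicate 2; the horizontal line is the mean and the bar the SD over 4 arrays, and the grey band spans the array medians. Trpv4 is high in female 2 alone (4.05), and Piezo2 lies on the band.

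Of the Hippo effectors, Yap1 (probe set 17523883, chromosome 9) was at 4.16 and 4.44 in males 1 and 2 and at 4.51 and 4.64 in females 1 and 2. Both females lay above both males, with only 0.07 between the nearest arrays. The SD over all arrays was 0.20, below the median of 0.35 among genes of similar level, and the percentile stayed between 83.1 and 86.5. A further Yap1 probe set (17514610) was at 3.02, 2.88, 2.75 and 2.86 in the same order of arrays. There the females lay below the males, so the 2 probe sets of this gene ran in opposite directions.

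Wwtr1 (probe set 17405365, chromosome 3), the TAZ gene, was at 5.90 and 6.06 in males 1 and 2 and at 5.41 and 5.50 in females 1 and 2. The arrays fell into the labelled sexes, with a gap of 0.41 between the lower male and the higher female. Within a sex the arrays differed by 0.16 at most. Its percentile was between 91.1 and 94.7, which put it among the top 1450 of 22180 genes by mean level.

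Tead1 (probe set 17481936, chromosome 7), the DNA-binding partner of both coactivators, was at 5.20 in male 1, 5.82 in male 2, 6.14 in female 1 and 5.08 in female 2. Each sex held 1 high and 1 low array, and the arrays differed by up to 1.06. The SD of 0.51 exceeded the median of 0.36 among genes of similar level, while the percentile stayed between 89.5 and 94.5.

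Gja1 (probe set 17233347, chromosome 10), the connexin 43 gene, was at 5.03 in male 1, 5.08 in male 2, 4.82 in female 1 and 5.32 in female 2. The females lay on both sides of the males. The SD was 0.21, below the median of 0.37 among genes of similar level, and the percentile ranged from 87.3 to 91.2.

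**Figure D2:**
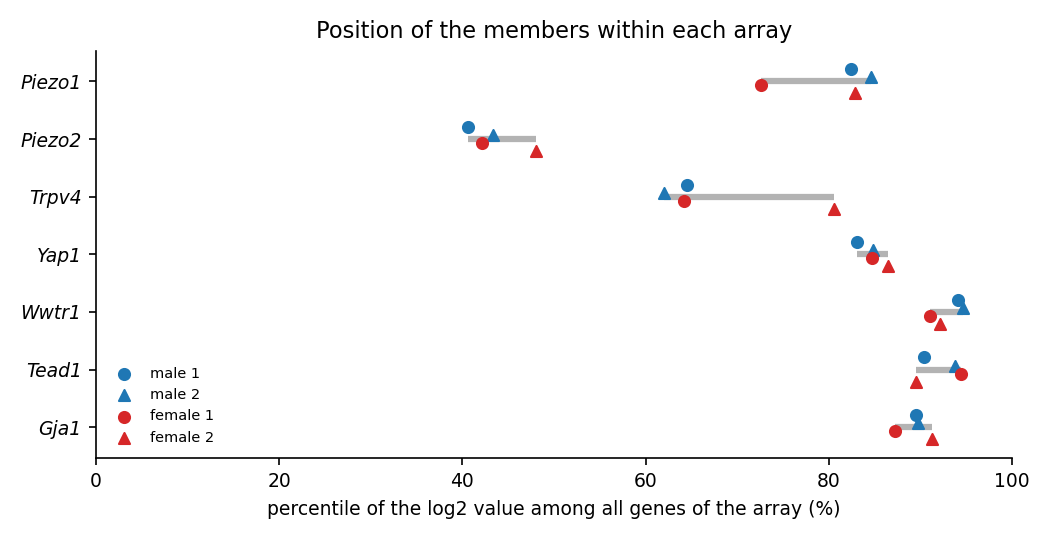
Percentile of each gene's log2 value among the 22180 genes of an array (horizontal axis, %), for each of the 4 arrays; grey bars span lowest to highest. Wwtr1, Tead1 and Gja1 lie between 87.3 and 94.7 on every array, Piezo2 between 40.7 and 48.0, and Trpv4 spans 62.0 to 80.5.

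The sexes were then compared. None of the 7 genes passed the test, and none of the 23521 probe sets tested did (limma with Benjamini-Hochberg adjustment, 0% called). For Wwtr1 the male mean was 5.98 ± 0.11 (SD, n = 2) and the female mean 5.45 ± 0.06 (SD, n = 2). The female minus male difference was -0.53 (SE 0.15, 95% interval -0.94 to -0.12), a 1.44-fold lower value in females. Its limma adjusted p was 0.969, and the unadjusted p was 0.0215. In this fit Wwtr1 was 1 of 7 genes at an unadjusted p under 0.05, and 4.49% of all probe sets reached that level. With limma's trended and robust prior the unadjusted p of Wwtr1 was 0.153. With only probe sets above the median level tested, the limma p was 0.069. It stayed under 0.05 in the other alternatives that kept all 4 arrays.

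The male mean of Yap1 was 4.30 ± 0.20 (SD, n = 2) and the female mean 4.58 ± 0.09 (SD, n = 2), which differ by 0.28 (SE 0.17, 95% interval -0.19 to 0.74). The further probe set gave -0.14 (SE 0.15), and the mean of both gave 0.07. Trpv4 differed by 0.61 (SE 0.39, 95% interval -0.44 to 1.65), a value carried by female 2, without which it was 0.07. Piezo1 differed by -0.41 (SE 0.33, 95% interval -1.30 to 0.49), and by 0.015 without female 1. The Trpv4 interval reaches past 1 log2 unit towards higher values in females and the Piezo1 interval past 1 unit towards lower ones, so these 4 arrays do not resolve differences of that size.

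Tead1 differed by 0.10 (SE 0.44, 95% interval -1.07 to 1.28) and Gja1 by 0.01 (SE 0.22, 95% interval -0.58 to 0.60). For Tead1 the value was -0.43 without female 1 and 0.63 without female 2. Gja1 was at -0.24 without female 2 and 0.26 without female 1. With limma's default prior the interval of Gja1 reaches 0.60 at most, whereas that of Tead1 passes 1 log2 unit both ways. With the trended and robust prior the unadjusted limma p of Gja1 was 0.974, against 0.960 by default, and that interval is not given.

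The male and female arrays did not overlap for 3 of the 7 genes (Trpv4, Yap1 and Wwtr1), beside 33.3% of all probe sets. Leaving aside Piezo2, which lay at the array medians, 4 of the other 6 had a higher value in females and 2 a lower one. Their median difference was 0.06, beside -0.0062 over all probe sets tested, of which 48.8% were higher in females. With limma the adjusted p of the 7 genes lay between 0.969 and 0.999.

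**Figure D3:**
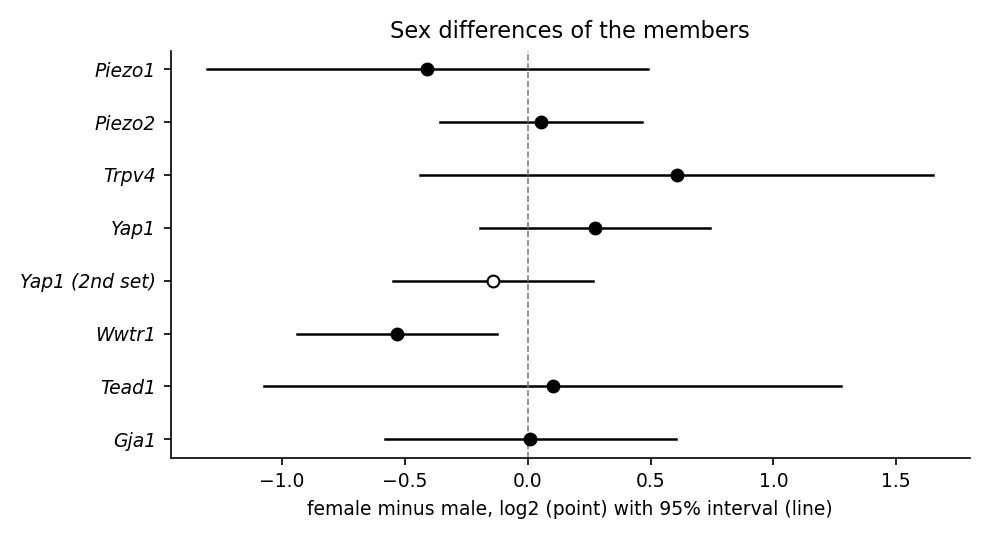
Female minus male difference in log2 units (points) with limma's 95% interval (lines) for the 7 genes; the open point is the second Yap1 probe set. With limma's default prior, only the Wwtr1 interval (-0.94 to -0.12) lies on one side of 0, and Wwtr1 did not pass the threshold after adjustment.

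Array patterns were compared with those of 75 related genes from the pathway lists that had a mean above the array medians. The measure was the root mean square difference between the deviations of 2 genes from their own means over the 4 arrays, where 0 means the same pattern. Yap1 was nearest to Crim1, a transmembrane regulator of growth factors, at 0.03, and to the adhesion adaptor gene Lims1 at 0.07, with a median of 0.30 over the 75 genes. Wwtr1 was nearest to Tgfb2, a TGF-beta ligand gene, at 0.13, and to the integrin gene Itgb1 at 0.16, against a median of 0.41. Piezo1 was nearest to the kinase gene Taok2 at 0.13 and to Tead4 at 0.14, against 0.44. Gja1 was nearest to Trpv3, which was below the array median in female 1, at 0.06 and to Tns1, a tensin gene, at 0.07, against 0.29. The nearest genes lie below the median by construction. A gene with equal values on all arrays would be at 0.18 from Yap1 and Gja1, 0.27 from Wwtr1 and 0.38 from Piezo1. With 4 arrays such likeness is a description of these samples alone.

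Tead1 was nearest to Amotl1, which encodes a YAP-binding scaffold of the angiomotin family, at 0.22, and to the adaptor gene Bcar1 at 0.23, against a median of 0.53. Amotl1 was at 6.98, 7.08, 7.82 and 6.88 in male 1, male 2, female 1 and female 2, with female 1 high as for Tead1. Vgll2, a TEAD cofactor of skeletal muscle, was at 4.98, 6.54, 7.36 and 6.31. Ankrd1, a YAP target gene that striated muscle also expresses, was at 3.45, 5.17, 5.65 and 4.34. Both were highest in female 1 and lowest in male 1, whereas Tead1 was lowest in female 2.

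Muscle myosin genes also varied between the arrays. Myh7, the slow myosin heavy chain gene, was at 6.99 in male 1, 8.31 in male 2, 9.07 in female 1 and 8.49 in female 2. Myh4, a fast one, was at 10.61, 10.46, 10.20 and 7.35 in the same order. Myh7 was lowest in male 1 and highest in female 1, like Vgll2 and Ankrd1, while Myh4 was low in female 2 alone. On the log2 scale the 14 muscle markers summed to 13.97, 13.93, 13.93 and 13.40 across the same arrays. The part of muscle RNA in the Tead1, Vgll2 and Ankrd1 values was not tested. Ankrd1, Myh7 and Myh4 were picked after their values were seen.

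Trpv4 was nearest to Ptk2b, the gene of the FAK-related kinase PYK2, and to the Hippo kinase gene Lats1, both at 0.11, against a median of 0.46. Ptk2b was at 2.18, 1.98 and 2.09 in male 1, male 2 and female 1 and at 2.99 in female 2. Only in female 2 did Ptk2b exceed its array's median, and it met the level required of candidates through that array alone. The matricellular gene Ccn2 was at 6.94, 6.77 and 6.76 on those arrays and at 8.23 in female 2. These genes, like Trpv4, were high in female 2 alone.

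Macrophage markers were high in that array as well, and 8 of 10 had their highest value there. So did 6 of 11 tendon cell, 6 of 10 endothelial, 6 of 9 adipocyte and 4 of 7 Schwann cell markers. Only 1 of 10 pericyte and smooth muscle markers and 0 of 14 skeletal muscle markers did. The share over all genes was not counted. All 10 macrophage markers had a mean above the array medians. Their summed log2 level was 8.56 in male 1, 8.81 in male 2, 8.61 in female 1 and 9.59 in female 2. Cd68, picked after its values were seen, was at 4.62, 4.77 and 4.97 and then at 6.78 in female 2. Cd14 did not follow, at 2.28, 2.37, 2.27 and 2.32, nor did Cd163, at 2.74, 2.62, 2.90 and 2.90. Schwann cell markers summed to 7.35, 7.07, 7.15 and 8.002 in male 1, male 2, female 1 and female 2, and endothelial markers to 7.28, 8.11, 7.94 and 8.37. The tendon cell markers summed to 11.50, 11.16, 11.02 and 11.79 in the same order. The part of these cell types in the Trpv4 value was not tested.

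**Figure D4:**
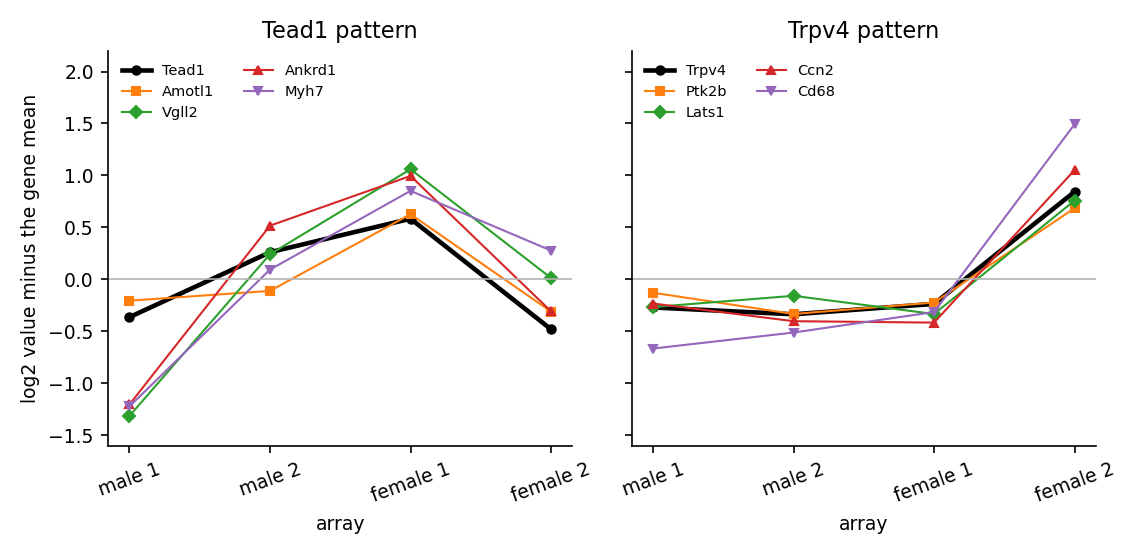
Log2 value minus the gene's mean over 4 arrays (vertical axis) on each array (horizontal axis); lines only join the points of a gene, since arrays have no order. Left, Tead1 with Amotl1, Vgll2, Ankrd1 and Myh7, all highest in female 1; right, Trpv4 with Ptk2b, Lats1, Ccn2 and Cd68, all highest in female 2.

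The wider pathways were described from gene lists that were set with earlier results of these data known. None of the lists had a member called by limma after adjustment over all probe sets. Of 21 measured YAP and TAZ target genes, a list defined in human tumours, 15 were higher and 6 lower in females, with a median difference of 0.13, where 48.8% of all probe sets were higher. Removing female 2 brought that median to 0.078, and removing female 1 to 0.34. Unadjusted p-values under 0.05 were found for 3 of these genes, beside 4.49% of all probe sets. Igfbp3, which encodes an IGF binding protein, was at 4.06 and 4.60 in males 1 and 2 and at 5.89 and 6.51 in females 1 and 2. The 9 measured adipocyte markers, all with a mean above the array medians, had medians of 4.54 and 4.96 on the male arrays and 5.75 and 5.71 on the female ones. Among them Pparg, picked with its values in view, was at 2.72, 3.65, 4.41 and 4.83 in male 1, male 2, female 1 and female 2. The sexes overlapped for Plin1 (5.19, 4.96, 4.81 and 5.30), Fabp4 (10.06, 10.50, 10.40 and 10.54) and Lpl (8.12, 8.35, 8.78 and 8.16). They did not overlap for the other adipocyte markers measured, beside 33.3% of all probe sets. Among these, Lep was near the array medians in males 1 and 2, at 2.25 and 2.51. The summed log2 level of the list was 10.52, 10.95, 11.02 and 11.06, with male 2 close to the females. The part of adipocyte RNA in the target gene values was not tested. Asap1 differed by 0.91 (SE 0.21) and Tgfb2 by -0.67 (SE 0.15). Axl, a receptor kinase gene, differed by -0.18 (SE 0.39). Ccn2 had the highest mean of the list, at percentile 97.5, and Ccn1, which like Ccn2 is a classical YAP target, was at 5.03, 5.53, 5.38 and 5.92.

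In the TEAD and cofactor list, 3 of 7 genes were higher and 4 lower in females, with a median of -0.0080. Vgll2 differed by 1.07 (SE 0.65), a value that was 0.29 without male 1, 0.55 without female 1 and 1.85 without male 2. Vgll3 differed by 0.36 (SE 0.34), but it was above the array medians mainly through female 2 (3.11), with 2.22, 2.35 and 2.19 on the other arrays. Tead4 differed by -0.15 (SE 0.35) and Tead3 by -0.07 (SE 0.20). Tead2 was at 2.24 and Vgll1 at 2.22 on average, below the highest array median, while Tead1, Tead3 and Tead4 had means above it.

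Of 19 measured Hippo kinases and upstream regulators, 10 were higher and 9 lower in females, with a median of 0.11. Without female 1 that median was -0.0039, and without female 2 it was 0.0086. Nf2, the merlin gene, differed by 0.50 (SE 0.32) and Wwc2 by 0.43 (SE 0.26). The TAO kinase genes Taok2 and Taok3, which act upstream in the cascade, differed by -0.65 (SE 0.31) and -0.65 (SE 0.40). None of these was stable to leaving out an array: Nf2 was at 0.097 and Taok3 at -0.13 without male 1, Wwc2 at 0.20 without male 2, and Taok2 at -0.25 without female 1. Lats1 was at 3.34, 3.45, 3.27 and 4.37 and Lats2 at 2.47, 2.42, 2.67 and 3.03 in male 1, male 2, female 1 and female 2. Female 2 was the high array for both LATS kinase genes.

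Among 17 other stretch-linked and TRP channel genes, 8 were higher and 9 lower in females, with a median of -0.05, and 3 had an unadjusted p under 0.05, beside 4.49% of all probe sets. Trpm7, a channel with a kinase domain, averaged 4.68 ± 0.45 (SD, n = 2) for males and 5.54 ± 0.02 (SD, n = 2) for females. Tmem63b, a member of the OSCA/TMEM63 family of stretch-activated channels, was at 6.43 and 6.65 in males and at 6.00 and 5.47 in females. The differences were 0.86 (SE 0.26) for Trpm7, 0.50 (SE 0.16) for Trpv2, -0.81 (SE 0.24) for Tmem63b and -0.11 (SE 0.23) for Tmem63a. Averaged over all probe sets of the gene, the difference was -0.36 for Tmem63b and 0.23 for Trpv2, with unadjusted limma p-values of 0.386 and 0.160. The male values of Trpv2, 2.30 and 2.09, lay at the array medians and are not told from background. The male and female arrays did not overlap for 7 of the 17, beside 33.3% of all probe sets. Among these, Kcnk10 (mean 1.93), Trpv1 (1.65) and Tmc1 (2.08) lay below the highest array median and are not told from background.

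Connexins and pannexins other than Gja1 lay low on these arrays. Only 5 of 17 measured had a mean above the highest array median, where 56.1% of all genes did, and their median percentile was 31.8. The 5 were Gja4 and Gja5, connexins of vessel walls, Gjd2, and the pannexin genes Panx1 and Panx2. Panx1 had the highest mean and differed by 0.33 (SE 0.38), and Gja4 by 0.24 (SE 0.15). Gja5 differed by -0.24 (SE 0.15) and Panx2 by -0.16 (SE 0.17). The female values of Gja5, 2.33 and 2.26, lay at the array medians and are not told from background. In all, 10 were higher and 7 lower in females, with a median of 0.0076, counting also the genes not told from background.

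All 24 measured focal adhesion partners had a mean above the highest array median, and 14 were higher and 10 lower in females, with a median of 0.03. Pxn, the gene of the scaffold paxillin, averaged 4.79 ± 0.03 (SD, n = 2) for males and 4.17 ± 0.23 (SD, n = 2) for females. Vasp, which promotes actin filament growth, differed by 0.71 (SE 0.27), Git2 by 0.58 (SE 0.33), Pxn by -0.63 (SE 0.18) and the talin gene Tln1 by -0.31 (SE 0.20). Tns1 had the highest mean of this list, at percentile 97.4.

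**Figure D5:**
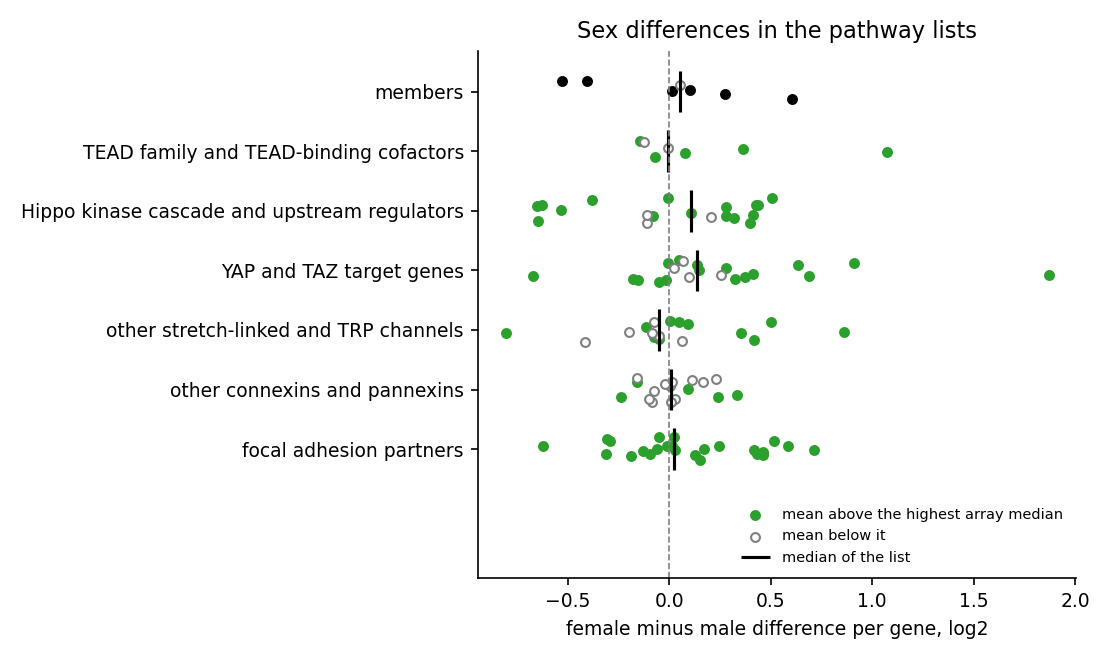
Female minus male log2 difference (horizontal axis) of the 7 genes and of each gene in the pathway lists; vertical bars are medians, and open points are genes whose mean was below the highest array median. The list medians lie between -0.05 and 0.13, and no gene passed the threshold.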

How the data were processed

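The deposited values were log2 expression values, 1 column per array. Per the submitters' processing notes, the authors used oligo and RMA; no version or probe summary level is stated there. That the scale is log2 was judged from the range of values. Per the labels' protocols, cDNA was amplified from whole-tendon RNA and hybridised to a Mouse Gene ST 2.1 strip, and the labels give 3 RNA wells per sample.

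Of 41345 rows, 23521 had exactly 1 gene symbol in GEO's platform annotation and were tested; 1814 had several and were not named. Entrez IDs matched 23328 probe sets to RefSeq genes of GRCm38.p6, used for chromosomes only. Limma 3.58.1 in R 4.3.3 (lmFit, eBayes) was fitted to all 23521 with sex as the only term, with Benjamini-Hochberg adjustment and a threshold of 0.05. An exact permutation test of 2 against 2 arrays cannot go below 0.333. The fit was checked on simulated data with SDs shuffled over probe sets and changes larger than any difference of the genes studied. Such data cannot check how the prior suits genes of a given level, nor differences as small as those found here. Precision is limited by having 4 arrays, with a median SE of 0.187 per difference. Percentiles used 1 probe set per gene.

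Named list genes were the 2 highest and 2 lowest differences among genes with a mean above the highest array median, and the gene of highest mean; any further gene was picked as an example with its values in view. The genes studied and all lists were chosen with earlier results of these data known. Alternatives covered the probe sets tested, filters, normalization, prior, array weights, pairing and leaving out each array. One further gene list is not reported here.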

Additional observations from a re-analysis of the deposited data

Results flagged for a closer look

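Treating the 4 arrays as a single group of untreated tendon samples, 53 genes named in the report, some of them picked with their values in view, were screened for an array that stood far from the others by Dixon's criterion at the 95% level. Chance would flag about 1 in 20 genes only if they were named without regard to their array pattern. Lats1 was named for its likeness to Trpv4, and Cd68 and Myh4 with their values in view. The number flagged is therefore not compared with chance. In all, 5 genes met the criterion, each through female 2. Trpv4 was at 4.05 there, against 2.87 to 2.97 on the other 3 arrays, a gap of 0.915 of the whole range. Ccn2 was at 8.23 against 6.76 to 6.94, Lats1 at 4.37 against 3.27 to 3.45, and Cd68 at 6.78 against 4.62 to 4.97. Myh4 was low there, at 7.35 against 10.20 to 10.61. For each of these genes female 1 lay nearer to the males than to female 2, as the criterion requires of such genes. The cause of the deviation in female 2 was not tested.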

How the results depend on the processing

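The count of 0 probe sets and of 0 of the 7 genes passing limma's threshold held under all 13 alternatives, including a threshold of 0.1; before adjustment, 1056 probe sets had a limma p under 0.05 in the analysis as reported. With the replicate number as a block, 0 probe sets were called. The labels give no shared litter or day, and same-numbered arrays correlated at -0.06 in their deviations over all probe sets tested. This correlation cannot exclude something shared that acts on some genes. Wwtr1 stayed between -0.61 and -0.45, Trpv4 between 0.07 and 1.15 and Yap1 between 0.07 and 0.42 in all alternatives run. When an array is left out, the lone array of its sex is assumed to vary like the other sex. Leaving out each array in turn gave -0.83 to 0.015 for Piezo1, -0.035 to 0.14 for Piezo2, -0.43 to 0.63 for Tead1 and -0.24 to 0.26 for Gja1, which was also at -0.044 after quantile normalization once more. The same ranges were -0.70 to 0.34 for Axl, -0.16 to 0.83 for Panx1, -0.28 to 0.14 for Tead3, -0.61 to 0.31 for Tead4, -0.38 to 0.15 for Tmem63a and -0.10 to 0.82 for Vgll3. Of 24 named list genes, these 6 reversed and 11 more moved by over 1.5 times: 0.29 to 1.85 for Vgll2, 0.097 to 0.91 for Nf2, 0.20 to 0.67 for Wwc2, -1.06 to -0.25 for Taok2, -1.17 to -0.13 for Taok3, 0.19 to 0.98 for Git2, 0.37 to 1.05 for Vasp, -0.48 to -0.15 for Tln1, 0.54 to 1.18 for Trpm7, 0.14 to 0.34 for Gja4 and -0.30 to -0.028 for Panx2. List medians ran from -0.034 to 0.14 for TEAD and cofactors, -0.0039 to 0.13 for Hippo regulators, 0.078 to 0.34 for target genes, -0.068 to 0.063 for channels, -0.028 to 0.11 for connexins and 0.018 to 0.19 for focal adhesion. With only the brighter probe sets (above the median level), medians were 0.19 for Hippo regulators, 0.027 for channels and 0.24 for connexins, and after quantile normalization 0.046 for Hippo regulators and 0.045 for connexins; the filter leaves fewer genes, and other causes were not tested. Percentiles moved for Piezo2 among all rows (49.6) and for Yap1 as the mean of its probe sets (77.1). Piezo2, Gja5 and Trpv2 have no value among the brighter probe sets.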
